A study of Mus musculus with 6 samples.

Results

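The 10 genes described here are Otop1, Kcnk3, Mab21l2, Hpcal4, Letmd1, Aspg, Itpk1, Parm1, Acsf3 and 1700037H04Rik, out of 21959 genes in the deposited expression table. They were taken by name, as genes that lie outside the classic lipid enzymes and whose read counts were much higher in skin treated with rebamipide than in skin treated with vehicle. They were chosen by the size and the regularity of that difference, so their own values are given below as a description without a test. The series holds 6 RNA-seq libraries of full-thickness dorsal skin from male C57BL/6 mice. The mice were shaved on the back at 7 weeks of age, when the hair follicles rest in telogen. Vehicle (30% dipropylene glycol and 70% water, 3 libraries) or 3% rebamipide, a drug used for gastric ulcers (3 libraries), was then applied daily to the shaved area for 7 days. The study's methods describe 3 mice per group, and no label ties a library to a named animal, so the spread given here is that between libraries.

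Several of these genes are best known from tissues other than skin. Otop1 and Kcnk3 encode channels that carry protons and potassium ions across the plasma membrane, and Kcnk3 and Letmd1 are also known from brown adipose tissue, whose fat cells burn fatty acids for heat through uncoupling protein 1. Acsf3 supplies malonyl-CoA inside mitochondria, where it feeds a small fatty acid synthesis pathway that makes the lipoyl cofactor of respiratory enzymes. Hpcal4 belongs to a family of calcium sensors of nerve cells, and Mab21l2 is needed for the development of the eye. Aspg, Itpk1 and Parm1 encode an asparaginase, an inositol phosphate kinase and a mucin-like glycoprotein.

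The libraries did not hold the same mixture of tissue. The counts assigned to genes summed to 38676018 to 39915276 per vehicle library and to 32709801 to 34706852 per rebamipide library. Transcripts of the mitochondrial genome made up 2.59 to 5.36% of all counts with vehicle and 13.28 to 21.96% with rebamipide. Rebamipide library 3 nearly lacked keratinocyte transcripts, with 4 counts of Krt5 and 0 counts of Krt14, against 50427 to 77535 and 26099 to 64371 in the vehicle libraries. Rebamipide libraries 1 and 2 held 13196 and 5368 counts of Krt5. With these 6 libraries a difference in the tissue that was taken cannot be told apart from an effect of the treatment. Each fold difference of the 10 genes is also given without rebamipide library 3, and in bulk tissue more cells of a type cannot be told apart from more RNA per cell.

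All 10 genes passed the filter on low counts. For each of them the lowest rebamipide library was above the highest vehicle library, in normalized CPM, the counts scaled to a common library size that was adjusted with the TMM method. The same separation held for 24.5% of the 14875 genes tested. On library sizes taken as total counts alone, the 10 genes were again separated, against 13% of the genes tested. These counts restate how the genes were chosen. Of the 10, Otop1, Kcnk3, Mab21l2 and Hpcal4 were near 0 in vehicle skin, at 0 to 2.75 CPM on average. The other 6 were plainly present there, at 6.67 to 34.3 CPM, with ratios of 7.07 to 29.5 between the groups.

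Otop1, the proton channel otopetrin 1 (ENSMUSG00000051596, chromosome 5, 38433316 to 38461552, GRCm39, plus strand), was barely detected in vehicle skin and abundant in rebamipide skin. It had 6, 26 and 16 counts in vehicle libraries 1, 2 and 3, and 5787, 10312 and 11019 counts in rebamipide libraries 1, 2 and 3. Its normalized level was 0.33 ± 0.20 CPM with vehicle and 338 ± 128 CPM with rebamipide (mean ± SD, n = 3 each, as throughout). The ratio of these means was 1023, or 903 without rebamipide library 3 and 652 on total counts alone. Its fitted log2 fold change was 9.98 (SE 0.78). The lowest rebamipide library was 361 times the highest vehicle library, so the groups lay far apart although the vehicle level rested on few reads.

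Kcnk3 (ENSMUSG00000049265, chromosome 5, 30745514 to 30782615, plus strand) encodes the acid-sensitive two-pore potassium channel TASK-1, a leak channel that sets the resting membrane potential. It had 99, 131 and 169 counts in the vehicle libraries and 7467, 12085 and 15908 counts in the rebamipide libraries. The means were 2.75 ± 0.82 and 441 ± 182 CPM, a ratio of 160.3, or 131 without rebamipide library 3 and 102 on total counts alone. Its fitted log2 fold change was 7.32 (SE 0.52). Rebamipide library 1 was the lowest of its group and still 68.0 times the highest vehicle library.

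Mab21l2 and Hpcal4 were nearly absent from vehicle skin, so their fold differences are lower bounds, set against 3 counts in each vehicle library. Mab21l2 (ENSMUSG00000057777, chromosome 3, 86452888 to 86455590, minus strand), a developmental gene of the eye and body wall, had 0 counts in all vehicle libraries and 55, 148 and 144 counts in the rebamipide libraries. Its rebamipide level was 4.36 ± 2.21 CPM, at least 70.6-fold higher, or at least 61.7-fold without rebamipide library 3. Hpcal4 (ENSMUSG00000046093, chromosome 4, 123077020 to 123088494, plus strand), a hippocalcin-like calcium sensor, had 2, 0 and 0 counts in the vehicle libraries and 138, 312 and 278 counts in the rebamipide libraries. Its rebamipide level was 9.10 ± 4.02 CPM, at least 147-fold higher, or at least 136-fold without rebamipide library 3. On total counts alone the bounds were 44.1-fold for Mab21l2 and 92.8-fold for Hpcal4. The mean log2(CPM + 0.5) of 6 neuron markers, of which Snap25, Syt1 and Elavl4 had at most 16 counts in any library, was 0.48 to 1.03 with vehicle and −0.21 to 0.36 with rebamipide, and its part in the level of Hpcal4 was not tested.

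Mab21l2 overlaps Lrba, which runs on the opposite strand, and the study's methods describe no step that marks the strand. Of the 3000 distinct 50-base stretches in the reference transcripts of Mab21l2, 999 (33.3%) also occur in transcripts of Lrba. Lrba, which encodes a protein of vesicle trafficking, was measured at 56.4 ± 8.25 CPM with vehicle and 61.1 ± 18.0 CPM with rebamipide. Its log2 fold change was 0.11 (SE 0.27, adjusted p = 0.770, edgeR), so it was not called, and the libraries with 0 counts of Mab21l2 held Lrba at about the level of the others. Kcnk3 shared 192 of 3926 stretches (4.89%) with transcripts of 20 other genes, 181 of them with Gm9899. Itpk1 shared 38 of 3312 with Gm28373, and the other 7 genes shared 0.

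Letmd1 (ENSMUSG00000037353, chromosome 15, 100366904 to 100377045, plus strand) encodes a protein with a LETM1 domain that sits in mitochondrial membranes and is needed for the uncoupled respiration of brown fat. It had 1094, 943 and 825 counts in the vehicle libraries and 12228, 16222 and 18268 counts in the rebamipide libraries. The means were 19.6 ± 2.17 and 577 ± 155 CPM, a ratio of 29.5, or 26.6 without rebamipide library 3 and 18.8 on total counts alone. Its fitted log2 fold change was 4.88 (SE 0.32). Letmd1 had the highest rebamipide CPM of the 10 genes, from a vehicle level that was already well above the detection limit.

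Acsf3 (ENSMUSG00000015016, chromosome 8, 123502225 to 123544619, plus strand), the mitochondrial malonyl-CoA synthetase, had 685, 603 and 571 counts in the vehicle libraries and 2469, 2703 and 2995 counts in the rebamipide libraries. The means were 12.7 ± 0.86 and 100.3 ± 17.1 CPM, a ratio of 7.88 that was 7.38 without rebamipide library 3 and 5.07 on total counts alone. Its fitted log2 fold change was 2.98 (SE 0.21). The coefficient of variation of Acsf3 across the rebamipide libraries, 17.0%, was the lowest of the 10 genes, whose median was 27.2%. The median was 26.7% over all genes tested and 23.8% over the genes called higher. These values are a description, since regularity entered the choice of the 10 genes.

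Aspg and Itpk1 showed nearly the same values relative to their own mean in every library. Aspg (ENSMUSG00000037686, chromosome 12, 112073113 to 112093993, plus strand), annotated in the deposited table as an asparaginase with lysophospholipase activity, had 313, 315 and 344 counts in the vehicle libraries and 1920, 2257 and 2927 counts in the rebamipide libraries. Its means were 6.67 ± 0.59 and 87.6 ± 24.2 CPM, a ratio of 13.1 and a fitted log2 fold change of 3.71 (SE 0.27). Itpk1 (ENSMUSG00000057963, chromosome 12, 102534841 to 102671189, minus strand), a kinase that makes the inositol tetrakisphosphates from which higher inositol phosphates are built, had 848, 760 and 864 counts in the vehicle libraries and 4841, 5707 and 7144 counts in the rebamipide libraries. Its means were 17.0 ± 1.52 and 218 ± 56.7 CPM, a ratio of 12.9 and a fitted log2 fold change of 3.68 (SE 0.27). Without rebamipide library 3 the ratios were 11.4 for Aspg and 11.3 for Itpk1, and on total counts alone they were 8.41 and 8.23.

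Parm1 (ENSMUSG00000034981, chromosome 5, 91665474 to 91774753, plus strand) encodes a mucin-like transmembrane protein of the Golgi apparatus and endosomes. It had 1595, 1713 and 1688 counts in the vehicle libraries and 5719, 7029 and 6929 counts in the rebamipide libraries. The means were 34.3 ± 2.12 and 242 ± 46.9 CPM, a ratio of 7.07, or 6.78 without rebamipide library 3 and 4.54 on total counts alone, and the fitted log2 fold change was 2.82 (SE 0.23). Parm1 had the highest vehicle CPM of the 10 genes and the smallest ratio.

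1700037H04Rik (ENSMUSG00000027327, chromosome 2, 130988244 to 131002001, minus strand) is annotated in the deposited table with protein phosphatase 1 binding and with NF-kappaB and TGF-beta signalling. It had 576, 555 and 699 counts in the vehicle libraries and 3990, 5409 and 5147 counts in the rebamipide libraries. The means were 12.6 ± 2.05 and 179 ± 42.3 CPM, a ratio of 14.3, or 13.7 without rebamipide library 3 and 9.15 on total counts alone. Its fitted log2 fold change was 3.83 (SE 0.27), so this little-annotated gene lay close to Aspg and Itpk1 in the size of its difference.

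**Figure D1:**
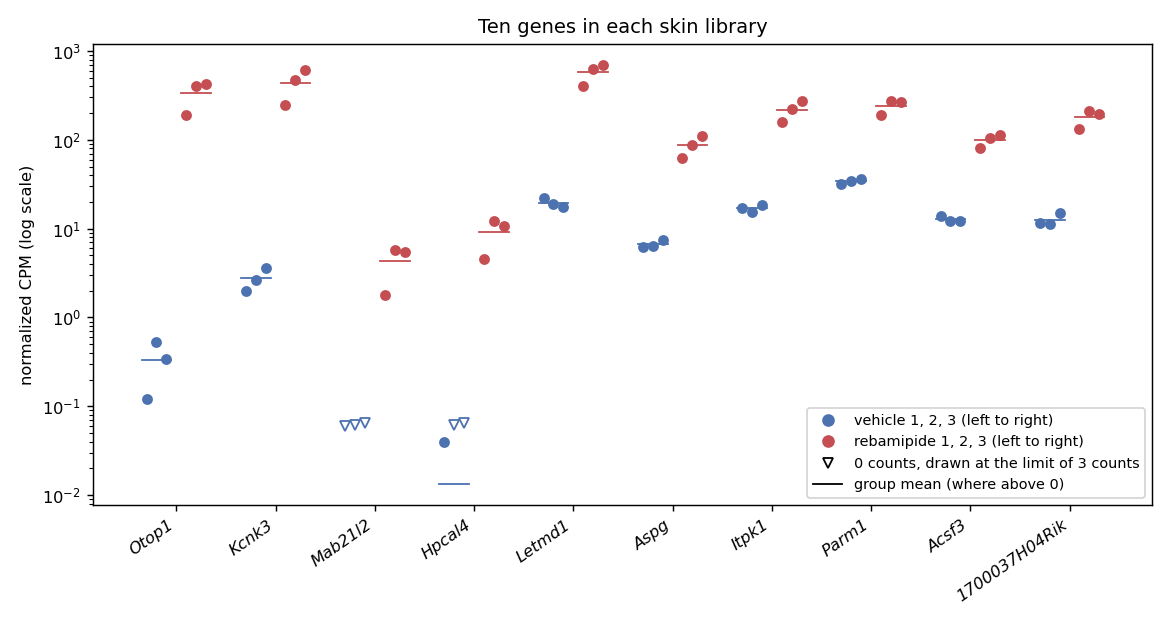
Normalized CPM (vertical axis, log scale) of the 10 genes in each of the 3 vehicle and 3 rebamipide libraries, with horizontal lines for the group means and open triangles for 0 counts drawn at the limit of 3 counts. Every rebamipide point lies above every vehicle point of its gene, and the vehicle means span 0 CPM for Mab21l2 to 34.3 CPM for Parm1.

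The size of these differences depended on the library size. The TMM factors were 1.21 to 1.28 with vehicle and 0.75 to 0.93 with rebamipide, and the ratios on total counts alone were lower for all 10 genes. The median fitted log2 fold change of all genes tested moved from −0.18 with TMM factors to −0.78 on total counts alone. The median over the 10 genes, with lower bounds for Mab21l2 and Hpcal4, was 4.36 with TMM factors and 3.71 on total counts alone. With each of the 6 libraries left out in turn, the ratio for Otop1 ranged from 759 to 1409 and that for Parm1 from 6.63 to 7.88.

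**Figure D2:**
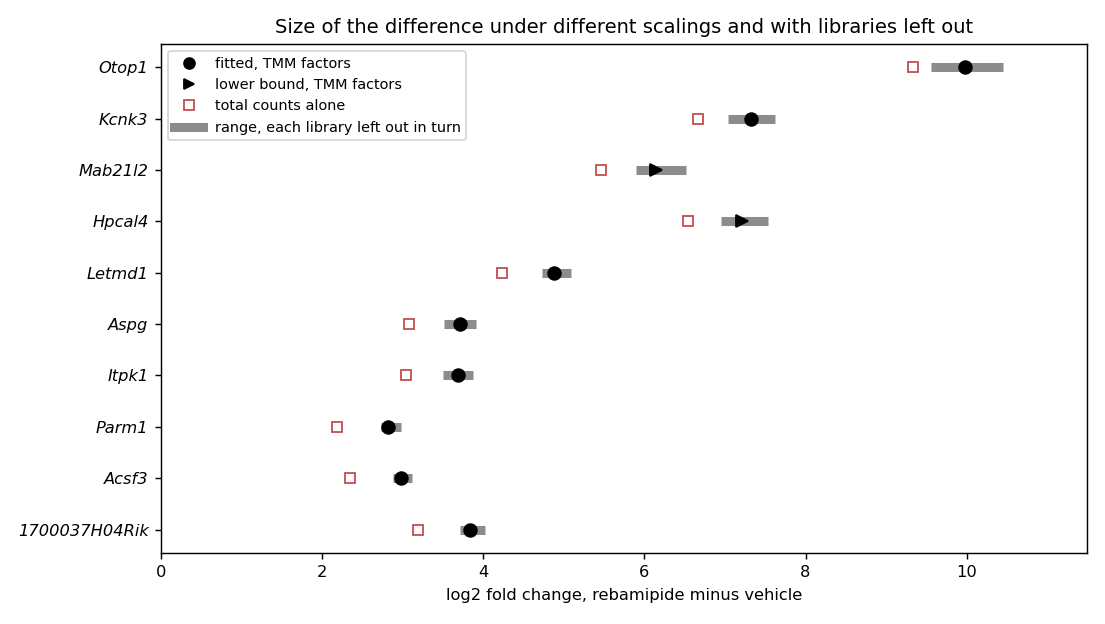
Log2 fold change (rebamipide minus vehicle, horizontal axis) of each of the 10 genes with TMM factors (filled symbols, triangles for lower bounds), on total counts alone (open squares), and over the fits that leave out each library in turn (grey bars). The values with TMM factors run from 2.82 for Parm1 to 9.98 for Otop1, and every square lies to the left of its filled symbol.

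Levels between genes are compared here as FPKM, which the authors deposited and which divides the counts by gene length. In the rebamipide group Letmd1 was at 94.4 ± 15.9 FPKM, Kcnk3 at 87.0 ± 29.0, Otop1 at 77.1 ± 22.3, 1700037H04Rik at 62.3 ± 8.03 and Itpk1 at 52.2 ± 8.92 FPKM. Each neighbouring pair among these 5 genes overlapped in its range over libraries. Parm1 at 38.1 ± 3.13 FPKM lay apart from the genes on both sides of it, Acsf3 at 21.4 ± 1.48 and Aspg at 19.8 ± 3.77 FPKM overlapped, and Hpcal4 at 1.33 ± 0.48 and Mab21l2 at 1.25 ± 0.54 FPKM lay far below and overlapped.

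The order was different in the vehicle group. Parm1 led at 8.38 ± 0.29 FPKM and lay apart from the next gene. 1700037H04Rik at 6.81 ± 0.97, Itpk1 at 6.33 ± 0.53, Letmd1 at 5.02 ± 0.70 and Acsf3 at 4.22 ± 0.40 FPKM followed, and each overlapped with its neighbour. Aspg at 2.35 ± 0.16, Kcnk3 at 0.85 ± 0.23 and Otop1 at 0.12 ± 0.07 FPKM lay apart from each other. Kcnk3 and Otop1 thus were below 6 and 7 of the other genes in vehicle skin and among the 3 highest in rebamipide skin, by FPKM.

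**Figure D3:**
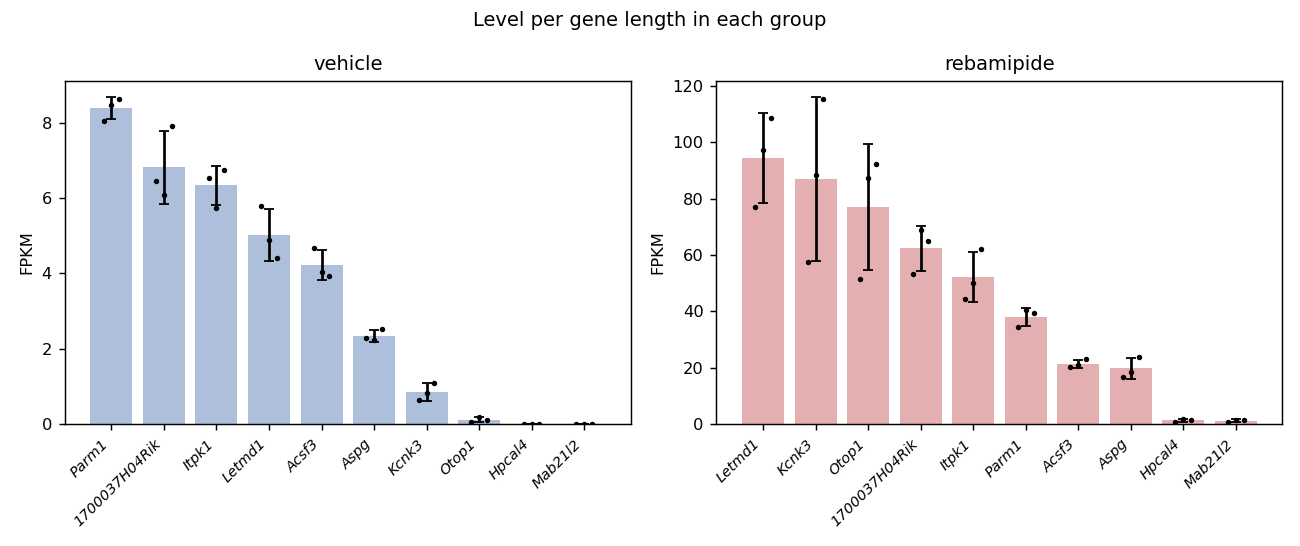
FPKM (vertical axis, on a different scale in each panel) of the 10 genes in the vehicle group (left) and the rebamipide group (right), ordered by level, with bars for means, error bars for the SD of 3 libraries and points for single libraries. Parm1 leads in vehicle skin at 8.38 FPKM, and Letmd1, Kcnk3 and Otop1 lead in rebamipide skin at 94.4, 87.0 and 77.1 FPKM.

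The promoters of the 10 genes were read to see what sequence they share. RefSeq start sites on GRCm38.p6 gave a window of 250 bases for 9 of the 10 genes, and Kcnk3 is named only. The half-site AGGTCA, bound by nuclear receptors such as PPARs and ERRs, was present on either strand in 2 of the 9 windows, those of Hpcal4 and Letmd1, against 14% of 32851 promoters. The TATA motif TATAAA was present in 1 of the 9, that of Mab21l2, against 12.4%. These 3 windows are shown, 5′ to 3′ on the strand of the gene up to the base before the start, with AGGTCA or TATAAA in capitals. They lie at chr4:123183254-123183503 (plus strand) for Hpcal4, chr15:100468761-100469010 (plus strand) for Letmd1 and chr3:86548284-86548533 (minus strand) for Mab21l2.
Hpcal4: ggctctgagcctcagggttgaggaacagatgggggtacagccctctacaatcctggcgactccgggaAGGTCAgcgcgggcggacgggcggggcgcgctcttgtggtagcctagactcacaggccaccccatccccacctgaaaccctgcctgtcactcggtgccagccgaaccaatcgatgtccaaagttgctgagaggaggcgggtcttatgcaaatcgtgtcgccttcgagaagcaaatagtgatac
Letmd1: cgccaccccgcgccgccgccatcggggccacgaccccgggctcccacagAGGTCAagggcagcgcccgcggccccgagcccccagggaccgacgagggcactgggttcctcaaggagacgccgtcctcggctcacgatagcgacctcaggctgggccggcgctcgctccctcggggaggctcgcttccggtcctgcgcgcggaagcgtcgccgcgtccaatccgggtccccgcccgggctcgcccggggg
Mab21l2: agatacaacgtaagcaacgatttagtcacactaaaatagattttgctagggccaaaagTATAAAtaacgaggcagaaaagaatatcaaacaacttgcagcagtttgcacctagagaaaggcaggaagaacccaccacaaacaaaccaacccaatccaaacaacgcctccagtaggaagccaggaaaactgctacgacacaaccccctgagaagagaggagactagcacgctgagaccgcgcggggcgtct

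The match began 183 bases before the start in Hpcal4, 201 bases in Letmd1 and 192 bases in Mab21l2, the last of which is far from the usual place of a TATA box. The longer ERR element TCAAGGTCA, which holds AGGTCA, the cyclic AMP element TGACGTCA and the C/EBP motif TTGCGCAA were in 0 of the 9 windows, against 0.387%, 1.55% and 0.164% of all promoters. The CCAAT motif was in 5 of 9 (33.8% of all), the GC box GGGCGG in 6 of 9 (32.7%) and the E-box CANNTG in 6 of 9 (66.2%). The windows varied widely in base composition, from 46.8% G and C in Mab21l2 to 77.6% in Letmd1 and 88.4% in Itpk1, where the median promoter had 52.4%. A match in such a window is a string of letters and does not show binding.

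Rebamipide library 1 was the lowest of its group for all 10 genes, also on total counts alone. Rebamipide library 2 was the highest for 4 of them (Mab21l2, Hpcal4, Parm1 and 1700037H04Rik) and library 3 for the other 6. This ordering was not particular to them, since library 1 was the lowest of its group for 93.5% of the 2093 genes called higher and for 46.5% of all genes tested. The highest rebamipide library was 3.18 times the lowest for Mab21l2, 2.68 times for Hpcal4, 2.47 times for Kcnk3 and 2.21 times for Otop1. For Acsf3 and Parm1 it was 1.41 and 1.46 times the lowest. The genes near 0 CPM in vehicle skin thus were also the ones that varied most between treated libraries.

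Markers of several cell types moved with the treatment groups or between the rebamipide libraries. The brown adipocyte list (8 genes) had a mean log2(CPM + 0.5) of 2.88, 3.40 and 4.01 in the vehicle libraries and 6.47, 7.67 and 7.36 in the rebamipide libraries. Ucp1, which encodes the uncoupling protein 1 named above, had 0 counts in all vehicle libraries and 81048, 220449 and 150572 counts in the rebamipide libraries. Of that list Ucp1, the lipid droplet gene Cidea, the deiodinase Dio2, the respiratory chain subunit Cox7a1 and the transcriptional regulator Prdm16 were called higher. These were 5 of 8, where 14.1% of all genes tested were called higher. Dio2 had 306, 158 and 426 counts in the vehicle libraries and 297, 3811 and 1789 in the rebamipide libraries. In normalized CPM its rebamipide library 1, at 9.78, was close to vehicle library 3, at 9.11. The fatty acid elongase Elovl3 was at 181 ± 55.1 and 66.3 ± 28.5 CPM, the transcription factor Zic1 at 12.1 ± 6.29 and 12.8 ± 2.75 CPM and the coactivator Ppargc1a at 8.69 ± 4.70 and 42.9 ± 25.1 CPM in the vehicle and rebamipide groups, and these 3 were not called.

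The adipocyte list (12 genes) was at 7.07 to 8.47 with vehicle and 9.51 to 10.08 with rebamipide on the same log2 scale. Of its genes 8 were called higher, where 14.1% of all genes tested were. The endothelial list was at 4.44 to 5.66 and 6.61 to 7.15, with 5 of 8 genes called higher, and the blood list at 2.16 to 4.21 and 4.97 to 5.99, with 3 of 5 called higher. The slow skeletal muscle list (5 genes, 3 called higher) was at −0.27 to 0.98 with vehicle. It was at 5.61, 4.38 and 0.55 in rebamipide libraries 1, 2 and 3. The fast skeletal muscle list was at 11.41, 9.30 and 4.34 and the basal keratinocyte list at 6.90, 6.08 and 1.26 in those libraries. Markers of the growing hair follicle averaged 11.41, 10.41 and 4.75 with vehicle and 6.28, −0.83 and −0.91 with rebamipide, so vehicle libraries 1 and 2 stood apart, although the skin was shaved in telogen. The suprabasal keratinocyte list was at 6.81 to 8.86 with vehicle and −0.46 to 6.72 with rebamipide. The fibroblast list was at 9.59 to 10.57 with vehicle and at 9.98, 8.34 and 7.49 with rebamipide. The leukocyte list was at 3.37 to 4.71 with vehicle and at 4.12, 3.16 and 2.26 with rebamipide. The fast muscle and basal keratinocyte lists were lowest in library 3, where 6 of the 10 genes had their highest values. The part of the brown adipocyte, adipocyte, endothelial, blood and skeletal muscle markers in the levels of the 10 genes was not tested.

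Within the rebamipide group the distance of each gene from the brown adipocyte list was compared on the log2 scale. The list itself ranged over 1.19 between the 3 libraries. The difference of Hpcal4 from the list ranged over 0.25, that of Otop1 over 0.37, that of Mab21l2 over 0.49 and that of Kcnk3 over 0.68, while these genes themselves ranged over 1.33, 1.14, 1.44 and 1.30. Their differences from the adipocyte list ranged over 1.01, 0.76, 1.12 and 0.73, and those from the endothelial list over 0.95, 0.70, 1.06 and 0.76. Itpk1 and 1700037H04Rik themselves ranged over 0.77 and 0.68, and their differences from the brown adipocyte list over 0.72 and 0.51. Those from the adipocyte list ranged over 0.20 and 0.36 and those from the endothelial list over 0.23 and 0.30. For Acsf3, Parm1, Aspg and Letmd1 the difference from the brown adipocyte list ranged over 0.82, 0.66, 0.72 and 0.54. The genes themselves ranged over 0.49, 0.54, 0.82 and 0.79, so the difference varied more than the gene for Acsf3 and Parm1. The difference from the adipocyte list ranged over 0.14, 0.31, 0.24 and 0.33 for these genes, and that from the endothelial list over 0.05, 0.21, 0.28 and 0.27. With 3 libraries these ranges are a description only.

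**Figure D4:**
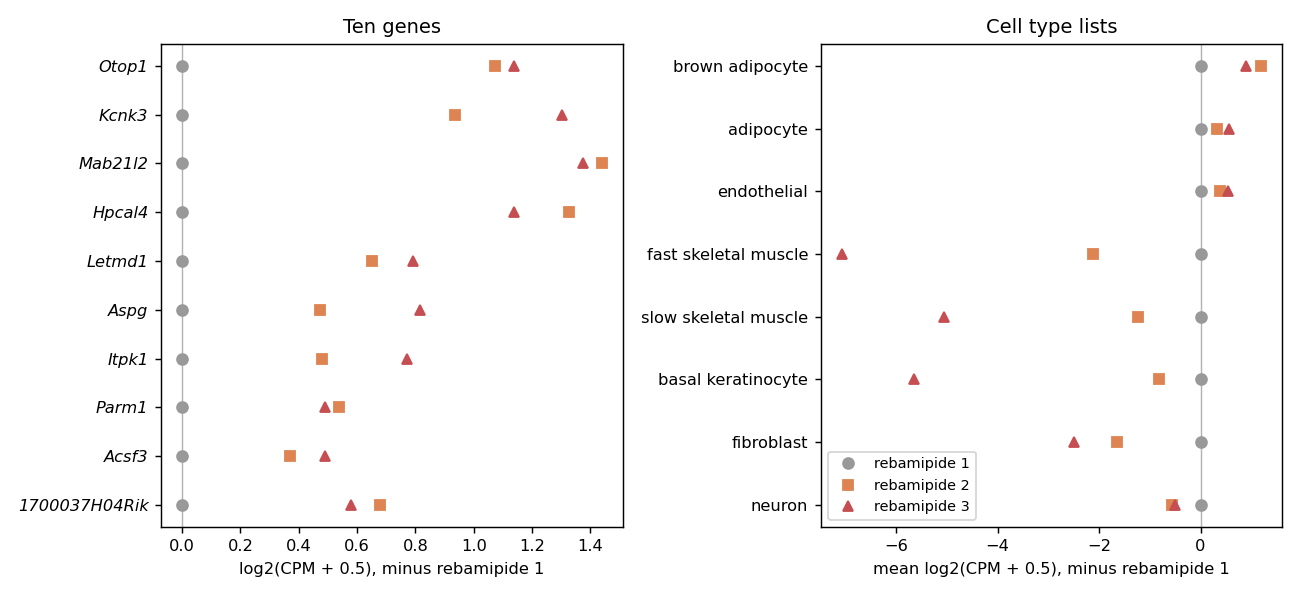
Log2(CPM + 0.5) in each rebamipide library minus that in rebamipide library 1 (horizontal axes), for the 10 genes (left) and as the mean of the genes in 8 cell type lists (right). All 10 genes lie to the right of library 1 (0) in the other two libraries, as do the brown adipocyte, adipocyte and endothelial lists, while the basal keratinocyte list lies far to the left in library 3, its mean being 1.26 there and 6.90 in library 1.

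The closest relatives and reaction partners of the 10 genes were then read from the fit over all genes, although these lists too were drawn up with earlier results known. Of 80 listed relatives 65 could be tested, and 20 were called higher (30.8%) and 4 lower (6.15%) by edgeR's quasi-likelihood test at an adjusted p under 0.05. Over all genes tested 14.1% were called higher and 6.51% lower. With all libraries DESeq2 called 21 relatives higher (32.3%, against 18.3% of all genes) and 18 lower (27.7%, against 17%). The median log2 fold change of the relatives was −0.02, against −0.18 over all genes tested. Of the 20 genes called higher, 12 came from 1 list, that around Acsf3. In the other lists 8 of 52 genes were called higher (15.4%), a share near that of all genes. edgeR called 0 relatives without vehicle library 2 or without rebamipide library 2, where it called 0 and 1 of all genes, while the fold changes stayed close (for Letm1 2.11 and 2.12 on the log2 scale, against 2.20 with all libraries). Without vehicle library 2, 31 of 64 had an unadjusted p under 0.05 (48.4%, against 27.5% of all genes), and DESeq2 called 20 higher (31.2%, against 14% of all genes) and limma-voom 5 (7.81%, against 1.4%). Without rebamipide library 2, 29 of 66 did (43.9%, against 26.5%), and DESeq2 called 22 higher (33.3%, against 17.5%) and limma-voom 7 (10.6%, against 1.67%).

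No other member of the channel families was called higher. Of the 2 other otopetrins, Otop3 was at 2.45 ± 1.12 CPM with vehicle and 0.32 ± 0.33 CPM with rebamipide, with a log2 fold change of −2.89 (SE 1.11, adjusted p = 0.108, edgeR). Otop2 had 602, 399 and 8 counts in the vehicle libraries and 4, 0 and 0 in the rebamipide libraries and did not pass the filter on low counts. Of 13 other two-pore potassium channels 8 were tested and 1 fell, Kcnk6 or TWIK-2, from 43.4 ± 15.2 to 11.4 ± 4.70 CPM (log2 fold change −1.93, SE 0.40, adjusted p = 0.0252, edgeR). That call was lost without vehicle library 1 (adjusted p = 0.0657) and without rebamipide library 3 (adjusted p = 0.0647). The next most abundant channels, Kcnk16 and Kcnk2, were not called, at 24.7 ± 24.2 and 10.3 ± 2.29 CPM with vehicle and 0.87 ± 1.5 and 4.54 ± 1.53 CPM with rebamipide.

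The calcium sensors gave a similar picture. Of 10 relatives of Hpcal4, 7 were tested, 0 were called higher and Vsnl1, or visinin-like 1, fell from 4.35 ± 1.21 to 0.66 ± 0.48 CPM (log2 fold change −2.71, SE 0.72, adjusted p = 0.0450, edgeR). The call for Vsnl1 was lost without any one of vehicle library 1, vehicle library 3 and rebamipide library 3 (adjusted p = 0.0777, 0.0966 and 0.0538) and without the filter on low counts (adjusted p = 0.0537). Ncs1, a sensor at the synapse, was at 24.1 ± 9.82 and 6.68 ± 5.46 CPM, and Hpcal1, the near relative of hippocalcin, was at 22.9 ± 0.17 and 22.7 ± 1.67 CPM. Of the Mab21 family Mab21l3 was at 8.55 ± 1.88 and 1.46 ± 1.32 CPM and Mab21l4 at 50.8 ± 40.4 and 1.22 ± 1.17 CPM, and neither was called. Mab21l1 had 2 to 19 counts in each library and was not tested. By unadjusted p, 1 of 1 otopetrin, 4 of 8 channels, 4 of 7 calcium sensors and both tested Mab21 genes passed 0.05, all with negative log2 fold changes, against 39.7% of all genes tested in either direction. DESeq2 and limma-voom likewise called 0 genes of these 4 lists higher, and DESeq2 called 1 otopetrin, 4 channels, 3 calcium sensors and 2 Mab21 genes lower, against 17% of all genes. Kcnk16 (2436, 1225 and 16 counts against 79, 0 and 0), Otop2 and Mab21l4 (2981, 4230 and 313 counts against 71, 34 and 0) had most of their counts in vehicle libraries 1 and 2, as the growing hair follicle list did, and the keratinocyte lists were lower in every rebamipide library. The part of these markers in the lower values was not tested.

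Letm1, the mitochondrial cation exchanger that gives its name to the LETM domain, rose from 60.0 ± 5.39 to 275 ± 50.5 CPM (log2 fold change 2.20, SE 0.22, adjusted p = 0.00939, edgeR). Letm2 was at 3.11 ± 0.10 and 5.23 ± 1.33 CPM and was not called. Of the 10 enzymes of asparagine, aspartate and glutamine around Aspg, 3 rose (30%) and 0 fell, against 14.1% and 6.51% of all genes tested. Their median log2 fold change was −0.10. Ass1 was at 71.2 ± 60.6 CPM with vehicle and 8.37 ± 5.09 CPM with rebamipide. It was not called (adjusted p = 0.0572, edgeR), but it was called lower by DESeq2 and on total counts alone. Aspa, which cleaves N-acetylaspartate, rose by 3.11 on the log2 scale (SE 0.56, adjusted p = 0.0168), glutamine synthetase Glul by 2.43 (SE 0.50, adjusted p = 0.0238) and asparagine synthetase Asns by 1.70 (SE 0.26, adjusted p = 0.0125, all edgeR). Asns makes the amino acid that an asparaginase splits. The transaminases Got1 and Got2 were at 76.7 ± 41.3 and 168 ± 18.4 CPM with vehicle and 76.5 ± 59.4 and 142 ± 80.8 CPM with rebamipide, and neither was called. Without rebamipide library 3 Glul was not called (adjusted p = 0.0524).

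Of the 17 inositol phosphate enzymes tested around Itpk1, 3 rose (17.6%), 2 fell (11.8%) and 12 were not called, shares not far from the 14.1% and 6.51% of all genes, and the median log2 fold change was −0.18. Itpka, a kinase of inositol trisphosphate, rose from 0.48 ± 0.25 to 14.0 ± 6.12 CPM (log2 fold change 4.84, SE 0.63, adjusted p = 0.00993). The pyrophosphate kinase Ppip5k1 and the inositol monophosphatase Impa2 rose by 1.90 (SE 0.29, adjusted p = 0.0118) and 2.42 (SE 0.31, adjusted p = 0.00993) on the log2 scale. Their relatives were mixed. Impa1 and Itpkb, relatives of Impa2 and Itpka, were not called and had positive log2 fold changes of 0.6805 and 0.5297. Itpkc and Ppip5k2, relatives of Itpka and Ppip5k1, were called lower. Their log2 fold changes were −1.207 (SE 0.233, adjusted p = 0.0206) and −1.825 (SE 0.4519, adjusted p = 0.03837, all edgeR). Both lower calls were lost without rebamipide library 3 (adjusted p = 0.0690 and 0.0714), and that for Ppip5k2 also without vehicle library 1 (adjusted p = 0.0807). Itpkb and Ip6k1, the most abundant enzymes not called, were at 144 ± 4.44 and 71.1 ± 2.02 CPM with vehicle and 208 ± 27.8 and 87.0 ± 11.2 CPM with rebamipide.

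Of the 5 cell surface mucins tested beside Parm1, 1 rose, the endothelial sialomucin Emcn, from 15.0 ± 6.78 to 40.4 ± 5.16 CPM (log2 fold change 1.43, SE 0.36, adjusted p = 0.0390, edgeR). Emcn is also a gene of the endothelial list, of which 5 of 8 genes were called higher. Its call was lost on total counts alone (adjusted p = 0.0933), with upper quartile factors (adjusted p = 0.0511), without vehicle library 1 (adjusted p = 0.0739) and without rebamipide library 3 (adjusted p = 0.0895). Cd164, a sialomucin found on most cells, was at 370.1 ± 12.2 and 308 ± 47.7 CPM, and Muc15 was at 13.8 ± 5.46 and 0.89 ± 0.79 CPM, and neither was called.

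The list around Acsf3 joins the enzymes of mitochondrial fatty acid synthesis with those of lipoyl and malonyl-CoA metabolism and other acyl-CoA synthetases. Of its 13 genes tested 12 rose and 0 fell, a share of 92.3%, and the median log2 fold change was 2.18. The 12 genes that rose carry a mitochondrial term in the deposited table and Aacs does not, and 43.5% of all tested genes with such a term were called higher. Within mitochondrial fatty acid synthesis, the malonyl transferase Mcat rose by 1.69 (SE 0.24, adjusted p = 0.0110), the condensing enzyme Oxsm by 1.39 (SE 0.33, adjusted p = 0.0346) and the reductase subunit Cbr4 by 1.91 (SE 0.28, adjusted p = 0.0113) on the log2 scale (edgeR, as for the genes that follow). The acyl carrier protein Ndufab1 rose by 2.86 (SE 0.30, adjusted p = 0.00939). The enoyl reductase Mecr, which closes the cycle, rose from 15.9 ± 3.69 to 201 ± 70.9 CPM, by 3.66 on the log2 scale (SE 0.37, adjusted p = 0.00939). For each of these genes the rebamipide libraries did not overlap the vehicle libraries, as for 24.5% of all genes tested.

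The lipoyl branch rose with them, with Lias at 1.41 (SE 0.22, adjusted p = 0.0131), Lipt1 at 2.70 (SE 0.37, adjusted p = 0.0102) and Lipt2 at 1.33 (SE 0.27, adjusted p = 0.0232) on the log2 scale. Genes that make and remove malonyl-CoA rose together. The acetyl-CoA carboxylases Acaca and Acacb rose by 2.82 (SE 0.38, adjusted p = 0.0101) and 3.21 (SE 0.59, adjusted p = 0.0185), and the decarboxylase Mlycd rose by 2.69 (SE 0.31, adjusted p = 0.00939). The acyl-CoA synthetase Acsf2 rose by 2.18 (SE 0.23, adjusted p = 0.00939). Aacs, a cytosolic acetoacetyl-CoA synthetase, was the gene not called, at 99.6 ± 32.4 and 141 ± 56.8 CPM.

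The count of 12 was also reached by DESeq2 and by limma-voom with all libraries, and it was 10 on total counts alone, where Oxsm (adjusted p = 0.0722) and Lipt2 (adjusted p = 0.0746) were not called. It was 10 without rebamipide library 3, 0 in edgeR without vehicle library 2 or rebamipide library 2, and 12 in DESeq2 with any 1 library left out. limma-voom called 4 of the 13 without vehicle library 2 and 5 without rebamipide library 2. Oxsm was also not called without vehicle library 1 or 3 (adjusted p = 0.0869 and 0.0504).

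**Figure D5:**
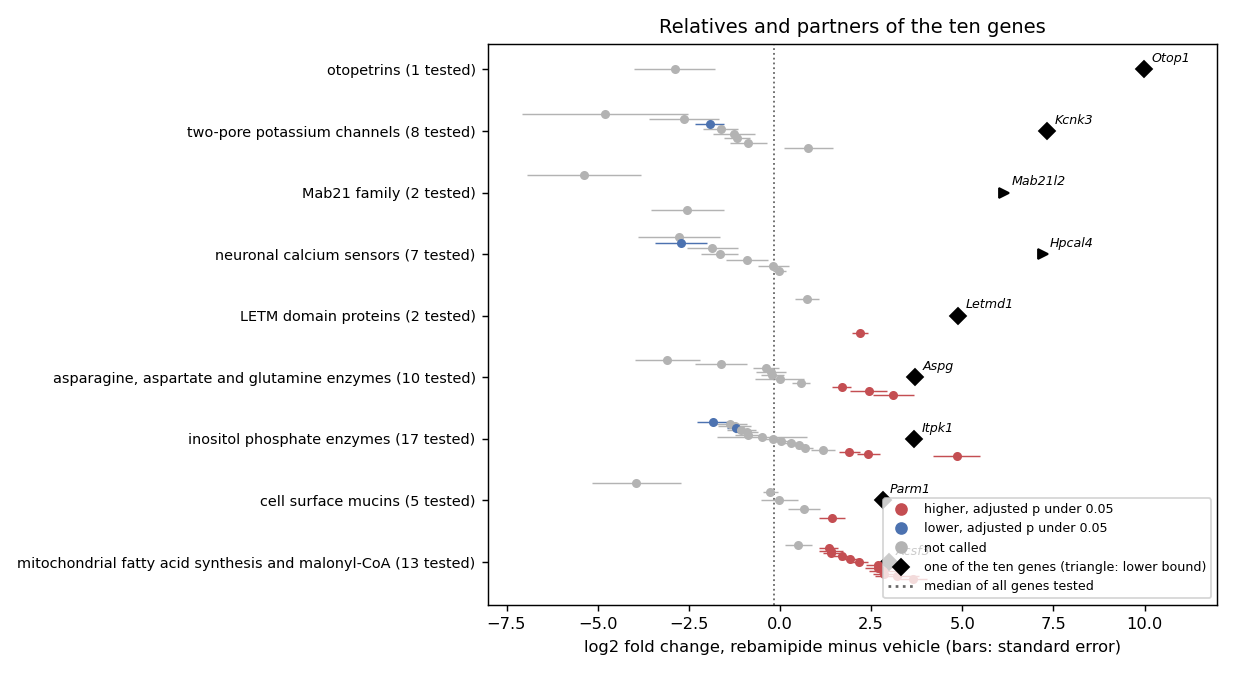
Log2 fold change with SE (horizontal axis) of the tested relatives and partners in 9 lists (rows), with genes called higher in red, called lower in blue and not called in grey, and the gene that each list belongs to as a black symbol. In the list of mitochondrial fatty acid synthesis and malonyl-CoA 12 of 13 genes were called higher, whereas none of the otopetrins, two-pore channels, Mab21 genes or calcium sensors was, and the dotted line marks the median of all genes tested at −0.18.

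The genes next to the 10 genes on the chromosome were read in the same fit. Of 21 neighbours, the nearest on each side and the 1 that overlaps, 16 were tested, 2 were called higher (12.5%, against 14.1% of all genes tested) and 0 lower (against 6.51%), and their median log2 fold change was 0.00. Hspa12b, a heat shock protein gene of endothelial cells, ends 3 bases from the end of 1700037H04Rik on the other strand and rose from 16.4 ± 6.03 to 72.1 ± 17.8 CPM (log2 fold change 2.13, SE 0.34, adjusted p = 0.0134, edgeR). If the libraries carry no strand, reads that run past the end of either of these genes cannot be assigned with certainty. Tmem128, 6338 bases from Otop1, rose from 20.8 to 48.6 CPM on average (log2 fold change 1.23, SE 0.27, adjusted p = 0.0294, edgeR). That call was lost on total counts alone (adjusted p = 0.0909) and without rebamipide library 3 (adjusted p = 0.0828) or vehicle library 3 (adjusted p = 0.0587). Without vehicle library 2 or rebamipide library 2 edgeR called 0 neighbours, with 3 and 2 at an unadjusted p under 0.05 (17.6 and 12.5%, against 27.5 and 26.5% of all genes), while DESeq2 called 3 and 2 higher (17.6 and 12.5%, against 14 and 17.5%) and limma-voom 0. Csrnp2, whose 3′ end lies 406 bases beyond the 3′ end of Letmd1 on the other strand, was at 6.73 and 6.74 CPM in the vehicle and rebamipide groups.

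The genes most like each of the 10 were found by the Euclidean distance between profiles of log2(CPM + 0.5) over the 6 libraries, each centred on its own mean. Which genes came out nearest depended on the pseudocount, since 6 of the 30 were kept with 5 in place of 0.5. The fatty acid transporter Slc27a2 was nearest to Otop1 at 0.83, with 2, 0 and 6 counts in the vehicle libraries and 3127, 8826 and 9535 in the rebamipide libraries, and Kcnk3 and the kininogen Kng2 followed at 2.02 and 2.36. Nearest to Kcnk3 were Kng2 at 0.74, the lipid droplet protein Plin5 at 0.96 and the glycogen synthase Gys2 at 1.09. Nearest to Letmd1 were the mitochondrial thiolase Acaa2 at 0.64, the DNA polymerase Poln at 0.66 and the very long-chain acyl-CoA dehydrogenase Acadvl at 0.74.

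Aspg and Itpk1 were each other's nearest gene at a distance of 0.13, and the dehydrogenase Hadh was second for both, at 0.20 and 0.27. Next came Akap1 for Aspg and the serine dehydratase-like gene Sdsl for Itpk1, and Sdsl was also nearest to 1700037H04Rik at 0.33, followed by Sh2b2 and Igsf21. Nearest to Acsf3 were the chemokine Cxcl9 at 0.09, the transketolase Tkt at 0.28 and Foxred1 at 0.31. Cxcl9 had 202, 171 and 170 counts in the vehicle libraries and 829, 860 and 956 in the rebamipide libraries. Nearest to Parm1 were the respiratory chain subunit Uqcrc2 at 0.21, Nos2 at 0.27 and Txnrd2 at 0.28. The nearest genes of the low genes Mab21l2 and Hpcal4 were Lurap1, Gpat4 and Arxes1 for Mab21l2 and Arxes2, Myo5c and Slc25a20 for Hpcal4. All of these genes were called higher, which follows from their likeness to genes chosen for that difference.

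The 10 genes shared little annotation. Of the 10, 2 (Letmd1 and Acsf3) carried a mitochondrial term for their cellular component in the deposited table, against 11.7% of all genes tested and 36.2% of the genes called higher. The term membrane, plasma membrane or integral component of membrane was carried by 4 of the 10 (Otop1, Kcnk3, Letmd1 and Parm1), against 42.3% of all genes tested, and Itpk1 carried the narrower term apical plasma membrane. By position they lay on 7 chromosomes, with 3 of them on chromosome 5 and 2 on chromosome 12.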

How the data were processed

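Total RNA from 3 vehicle and 3 rebamipide samples of dorsal skin was made into poly-A selected libraries. The study's methods describe no step that marks the strand. Counts and FPKM per gene were deposited by the authors in 1 table with 12 value columns, and the submitters' processing notes name fastp 0.22.0, HISAT2 2.1.0, HTSeq 0.9.1 and the build GRCm39. The read counts the authors deposited are whole numbers without normalization. The FPKM the authors deposited equal counts over gene length in kilobases, scaled by the total of each library.

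Counts were analysed with edgeR 4.0.16 in R 4.3.3 (TMM factors, filterByExpr, quasi-likelihood test, group as the only term, Benjamini-Hochberg adjustment over 14875 genes, calls at an adjusted p under 0.05). DESeq2 1.42.0, which the study's methods name, and limma-voom (limma 3.58.1) were run as alternatives, with other scalings, other filters, a replicate block and each library left out. The analysis was tested on simulated data. The SE of a log2 fold change is the fold change divided by the root of its F statistic. A fold against a group with at most 3 counts per library was set against 3 counts in each vehicle library, which covers counting error only. The samples came from the labels, and groups of 3 rest on few degrees of freedom.

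The 10 genes and all lists were chosen with earlier results of these data known, so no p-value is given for the 10 genes. Named besides them are the relatives called and the 2 most abundant not called of each list (all genes of lists with 4 or fewer), the neighbours called or overlapping, the 3 nearest genes by profile and the brown adipocyte genes. Csrnp2, Ass1, Impa1, the keratins and the neuron markers were named after their values were seen. Shared 50-base stretches were counted on both strands of the GENCODE M21 transcripts. Motifs were searched on both strands of RefSeq promoters of GRCm38.p6, and these coordinates were not mixed with those of the table. A comparison of protein sequences was not run.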

Additional observations from a re-analysis of the deposited data

How the results depend on the processing

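The median log2 fold change of the 10 genes was 4.36 and moved to 3.71 on total counts alone and to 3.64 with at least 10 counts required in every library, where Otop1, Mab21l2 and Hpcal4 drop out; leaving out single libraries gave 4.25 to 4.55. Over all genes, 2093 were called higher and 968 lower. Total counts alone gave 1258 and 3752, the stricter filter 1512 lower and DESeq2 2534 lower. Relatives called lower, 4 in number, became 18 on total counts alone (27.7%, against 25.2% of all genes). They became 7 with the stricter filter (12.7%, against 11.9%) and 18 with DESeq2 (27.7%, against 17%). Neighbours called, 2 higher and 0 lower, became 1 higher on total counts alone and 1 with a replicate block, and lower calls became 2 on total counts alone, 1 with the stricter filter and 1 with DESeq2; by unadjusted p 6 of the 16 passed 0.05 (37.5%, against 39.7% of all genes). The causes of these shifts were not tested.

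Leaving out 1 library at a time, in edgeR and, as alternatives chosen after seeing the data, in DESeq2 and limma-voom, gave 0 to 3657 genes higher and 0 to 4189 lower, 0 to 25 relatives higher and 0 to 23 lower, and 0 to 5 neighbours higher and 0 to 2 lower. The edgeR counts alone ran from 0 to 2810 higher and 0 to 1971 lower. Without vehicle library 2 edgeR called 0 genes, with a smallest adjusted p of 0.0747 and 4116 genes at an unadjusted p under 0.05, and without rebamipide library 2 it called 1, with 4062.

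The labels number the replicates but state no pairing. The deviations of same-numbered libraries from their group means correlated at −0.07, −0.03 and −0.04, and those of other pairs at −0.335 to 0.353. With 3 libraries per group these values cannot decide whether the libraries were paired. With a replicate block 1432 genes were called higher and 855 lower, and 18 relatives higher and 3 lower. The block lost the lower calls of Vsnl1, Itpkc and Ppip5k2 (adjusted p = 0.101, 0.0504 and 0.0991, edgeR) and the higher calls of Oxsm, Lipt2 and the neighbour Tmem128 (0.0590, 0.0619 and 0.0847), and added lower calls of Mab21l4 and Isyna1 (0.0306 and 0.0434). Of the 30 nearest genes by profile, 21 were kept on total counts alone and 6 with 5 added to the CPM.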
